A study of Mus musculus with 2 samples.

Results

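Genes that build ribosomes were examined in mouse hybridoma cells exposed to the bursal peptide BSP-II. Of 40 genes listed for nucleolar proteins, RNA polymerase I and ribosome assembly, 37 were matched through RefSeq accessions to 62 probes of the array, out of 17302 genes matched in all. Nop56, Utp20 and Wdr43 were not matched and are not analysed here. The other 37 genes were each measured by at least 1 probe well above background on both arrays, and 61 of the 62 probes met that mark. These genes are called the members below.

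A hybridoma is a fusion of an antibody-producing B cell with a myeloma cell, and BSP-II is a peptide from the bursa of Fabricius, the organ of B cell development in birds. Cells of the line labelled 1H5F9 were kept for 4 h in RPMI medium with heat-inactivated fetal bovine serum and either 0 µg/ml (untreated) or 5 µg/ml BSP-II. Each culture gave 1 Agilent array, read in a single colour (Cy3), so that each group is 1 array. The series' design text speaks of 2 experiments with different cells, and both arrays used here carry replicate number 1.

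Ribosome production starts in the nucleolus, where RNA polymerase I transcribes the precursor of the ribosomal RNAs. Small nucleolar ribonucleoproteins (snoRNPs) modify this RNA, and a large set of assembly factors, helicases and chaperones folds and cuts it while ribosomal proteins are added. The pathway is highly active in growing cells and in antibody-secreting cells, and many of its genes are known targets of the transcription factor Myc. Expression of the pathway is often read as a measure of growth.

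With 1 array per group, no value here has a replicate check, no test could be made, and higher or lower describes these 2 arrays alone. The level of a gene is the log2 of its processed signal relative to the 75th percentile of its array, taken from its brightest probe. A difference is the level on the BSP-II array minus that on the untreated array. The scanner software's own error of a spot, carried to a difference, had a median of 0.20 over all genes. For 157 probes printed at least 5 times, the SD between repeat spots had a median of 0.07. Neither covers the spread between cultures, which was not measured.

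The arrays differed in background. The SD of the negative controls was 5.34 without BSP-II and 1.39 with it, the median local background 46 and 37, and the number of probes well above background 24681 and 27283. The part of this in the results below was not tested. No gene spot was saturated. The arrays lay on the same slide. Of the markers checked for cell identity, all 8 of plasma cells were well above background on both arrays, with signals from 1522 to 150869 on the untreated array. Of 6 B lineage markers 5 were detected on both arrays, and Pax5 was not well above background on either. The 5 B lineage markers had a median difference of −0.28, with 3 at least 1.2-fold lower and all below the median of all genes, and the 8 plasma cell markers a median of −0.13, with 5 below. The highest signal of any marker of another cell type on the untreated array was 209 for T cells, 48.4 for myeloid cells, 184 for erythroid cells and 27.7 for fibroblasts. On the BSP-II array these were 168, 104, 183 and 31.2. The myeloid sum was 84.6 without BSP-II and 161 with it, over 4 markers of which 2 were well above background on both arrays. Lyz2 was not on either, nor Itgam without BSP-II. The part of these markers in the results below was not tested.

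The members were expressed at high levels and differed little between the arrays. Their levels ranged from −1.97 to 7.36 on the untreated array, with a median of 4.44, and from −2.13 to 7.16 on the BSP-II array, with a median of 4.34. Of the 37 members, 35 lay at or above the median level of the 12862 genes measured on both arrays, here called the brighter genes, and 34 lay in the top 3 of 10 equal bins of level. The median difference of the members was −0.08, against −0.03 for all measured genes and −0.00 for the 6431 brighter genes. The middle 50% of the members' differences ran from −0.15 to −0.03, and 31 of the 37 were smaller than the scanner's own error. That error ran only from 0.204 to 0.212 over the members, so it acts here as a nearly fixed cutoff.

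Most members were slightly lower on the BSP-II array once the arrays were scaled. In all, 28 of the 37 (75.7%) lay below the median difference of all measured genes, where 50% of all genes lie by definition and 43.6% of the brighter genes lie. Below 0 were 29, beside 55.3% of all measured genes and 50.9% of the brighter genes. The direction against 0 is set by the scaling, since the BSP-II array was brighter as a whole. Before scaling, 33 of the 37 members had the higher signal on the BSP-II array, with a median difference of 0.12, beside 0.18 for all measured genes. The scaling subtracted 0.21 from every difference. The values therefore bear on the members only relative to other genes. The markers of B lineage and plasma cells given above had lower medians than the members. So did the measured markers of T cells (−0.31, 4 genes), fibroblasts (−0.34, 3 genes) and erythroid cells (−0.10, 2 genes), at the low signals given above. The 2 measured myeloid markers had a median of 0.53. The lower medians were thus not particular to B lineage and plasma cell markers. In bulk RNA such as this, fewer expressing cells and less RNA per cell cannot be told apart.

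**Figure D1:**
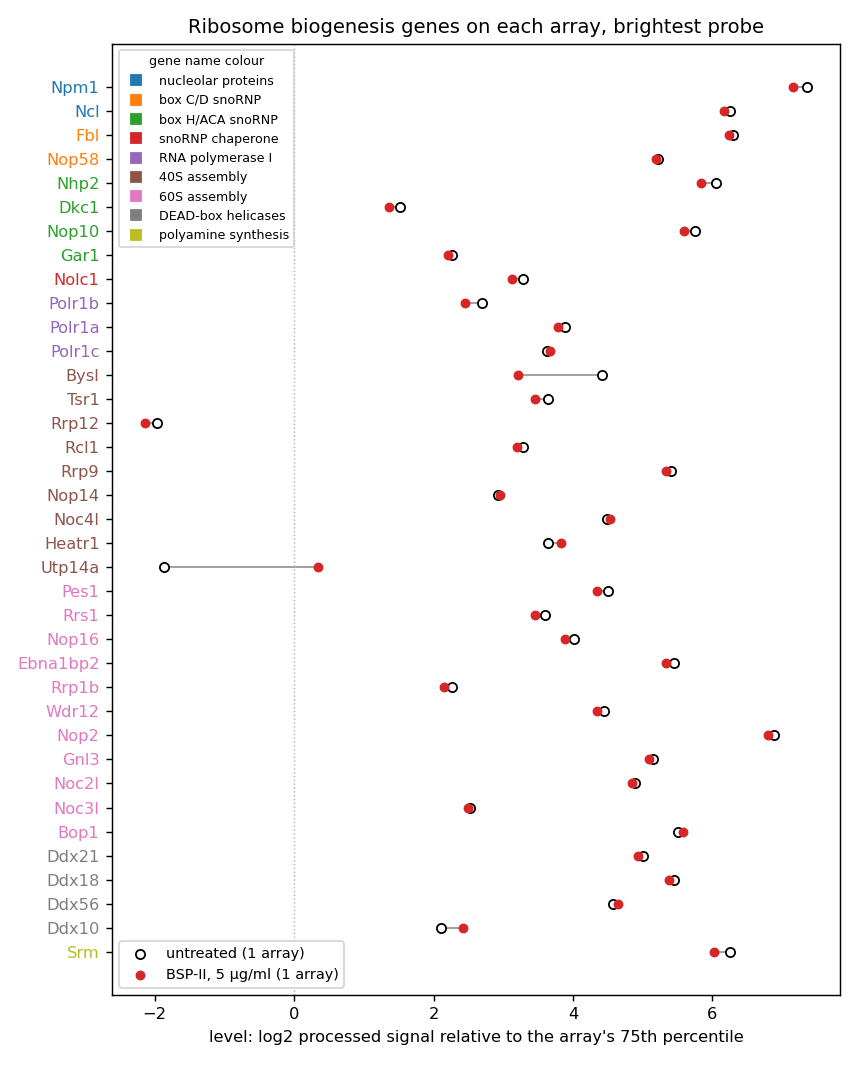
The level of each member on the untreated array (open circles) and the BSP-II array (red), as log2 processed signal relative to the array's 75th percentile, 1 array each. Gene names are coloured by role, and for all members except Bysl, Utp14a and Ddx10 the circles lie within 0.26 of each other.

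Few members stood out by size. At least 1.2-fold lower on the BSP-II array was 1 member, Bysl, where 18.1% of all measured genes and 5.99% of the brighter genes were. At least 1.2-fold higher were 2 members, Utp14a and Ddx10, where 8.66% of all measured genes and 4.76% of the brighter genes were. The other 34 lay within 1.2-fold. At 1.5-fold, which 4.84% of all measured genes and 0.98% of the brighter genes passed on the low side and 1.21% and 0.28% on the high side, Bysl and Utp14a were outside. Both also passed 2-fold, as did 1% of all measured genes and 0.155% of the brighter genes on the low side and 0.202% and 0.0155% on the high side.

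**Figure D2:**
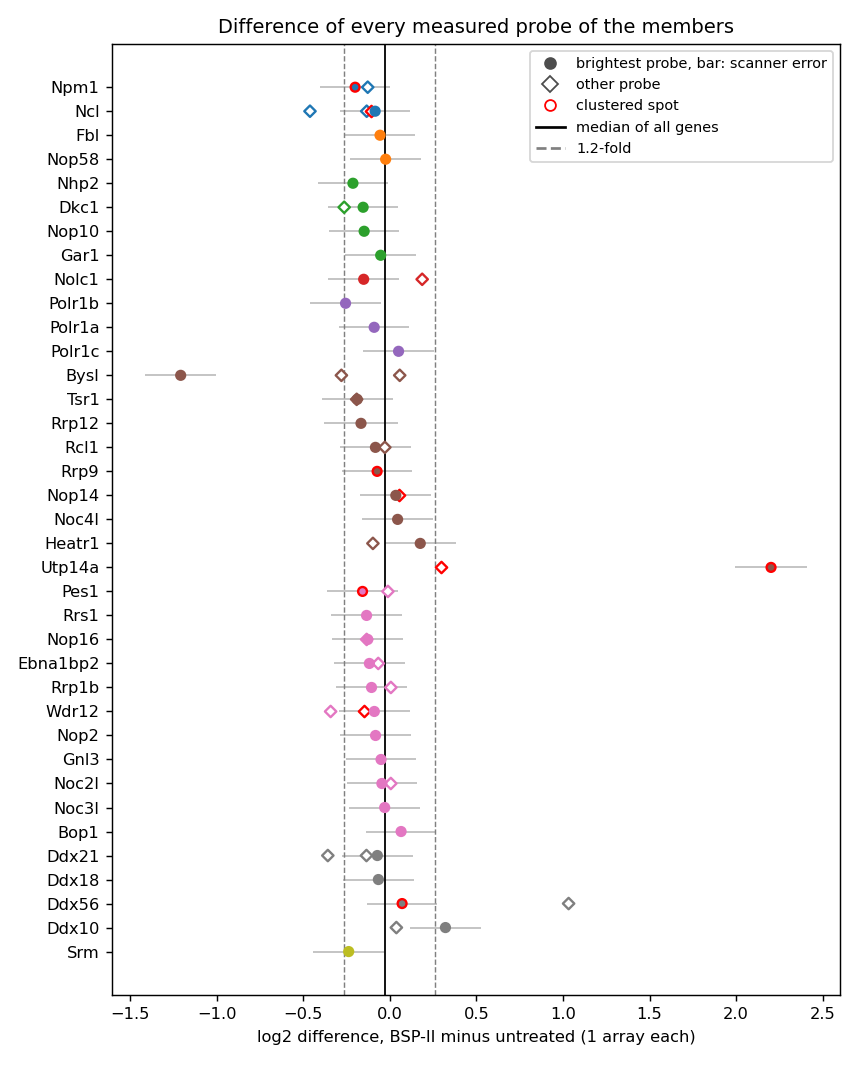
The log2 difference, BSP-II minus untreated, of each of the 61 measured probes, with filled circles for the brightest probe of a gene, open diamonds for its other probes, grey bars for the scanner's own error and red outlines for clustered spots. Bysl at −1.21 and Utp14a at 2.20 lie far from their other probes, while most members lie within 1.2-fold (dashed lines) and left of the median of all genes (solid line).

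The members were also set beside genes of like level. In the highest of 10 equal bins of level, which held 19 of the members, the median difference of all genes was −0.05 and that of the members −0.07. In the next bin the values were −0.01 and −0.13, for 9 members, and in the one below 0.02 and −0.04, for 6 members. The −0.13 lay below the lower quartile of all genes in its bin, −0.09. Across all bins, 27 of the 37 members lay below the median of genes in their own bin. All genes of the highest bin also had a lower median than genes of middle level, where it reached 0.03.

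**Figure D3:**
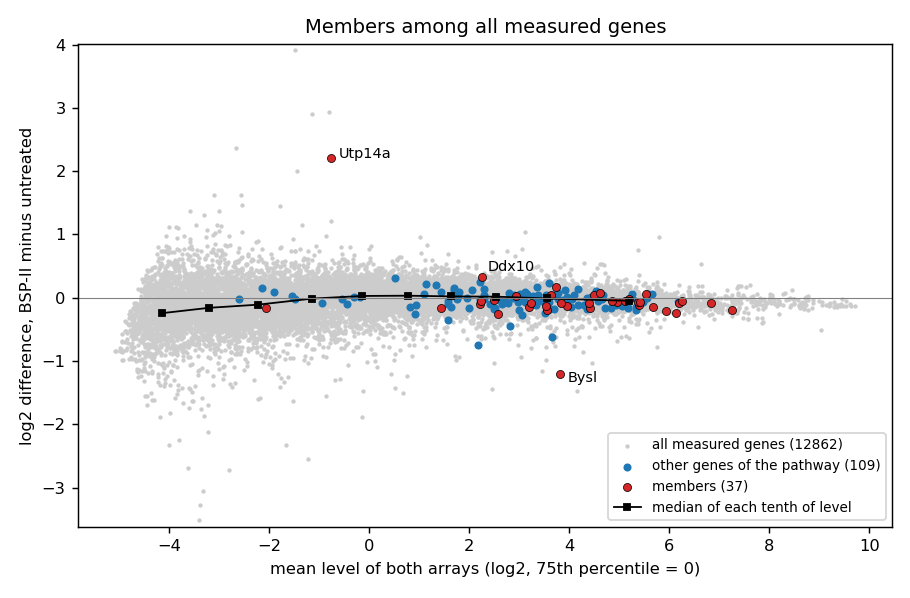
Difference against mean level (log2, both arrays) for all 12862 measured genes (grey), 109 other genes of the pathway (blue) and the 37 members (red). Black squares mark the median of each of 10 bins of level, which falls from 0.03 at middle levels to −0.05 at the top, where 19 of the members lie.

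The most abundant nucleolar proteins had levels among the highest on the arrays. Npm1, nucleophosmin, a histone and ribosome chaperone, had signals of 50821 and 50981 (untreated, then BSP-II, an order kept below) and levels of 7.36 and 7.16, a difference of −0.20. Its other probe, at 48574 and 51249, gave −0.13. Ncl, nucleolin, which binds the ribosomal RNA precursor, had signals of 23462 and 25502 and levels of 6.25 and 6.16, a difference of −0.08. Another bright probe of Ncl, at 22962 and 24550, gave −0.11. The dimmer ones gave −0.46, at signals of 2193 and 1836, and −0.13, at 63.8 and 67.0. All 4 probes of Ncl and both of Npm1 were lower on the BSP-II array, by amounts that differ up to 0.38 within Ncl. One spot of each gene was clustered, meaning that at least 2 other spots within 3 rows and columns were 2-fold different in a shared direction.

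Of the snoRNP genes, the 4 of the H/ACA set were slightly lower and the 2 of the C/D set lay on both sides of the median of all genes. Box H/ACA particles carry out pseudouridylation and also belong to telomerase. Of their 4 core proteins, Nhp2 alone exceeded the scanner's own error. Nhp2 had signals of 20456 and 20341 and levels of 6.05 and 5.84, a difference of −0.21 from its only probe. Dkc1, dyskerin, the pseudouridine synthase itself, was at 1.51 and 1.36, a difference of −0.15. Its other probe, at signals of 194 and 186, gave −0.26. Nop10 was at 5.74 and 5.59, a difference of −0.15. Gar1 was at 2.26 and 2.21, a difference of −0.05. Box C/D particles carry out ribose methylation, and Fbl, fibrillarin, their methyltransferase, had signals of 24207 and 26829 and levels of 6.29 and 6.23, a difference of −0.06. Nop58, a core scaffold protein, was at 5.22 and 5.19, a difference of −0.02, which is level with the median of all genes. Nolc1, a chaperone of snoRNPs, was at −0.15 by its brighter probe (signals of 3005 and 3119, levels of 3.28 and 3.13) and at 0.19 by its dimmer one (478 and 627), so its direction depended on the probe.

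Of the RNA polymerase I subunits, Polr1a, the largest, had signals of 4556 and 4932 and levels of 3.88 and 3.79, a difference of −0.09. Polr1b, the second-largest, was at 2.70 and 2.44, a difference of −0.26 and just inside 1.2-fold. Polr1c, which RNA polymerase III also contains, was at 3.62 and 3.67, a difference of 0.05. Each of the 3 rests on 1 probe, and only the difference of Polr1b exceeded the scanner's own error. Myc itself was close to level on both arrays, with levels of 7.40 and 7.37, a difference of −0.03, and −0.04 and −0.03 at its other probes.

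The factors of the small subunit processome and of 40S maturation were the most varied. Their 9 measured genes had a median of −0.07, with 5 below and 4 above the median of all genes, and they held both extremes of the members. Bysl, bystin, needed late in 40S maturation, had signals of 6619 without BSP-II and 3302 with it at its brightest probe. Its levels were 4.42 and 3.21, a difference of −1.21 or 2.31-fold, the 6th lowest of the brighter genes. Its other probes did not share that size: one gave −0.28, at signals of 1306 and 1240, and another 0.06, at 156 and 187. None of the 3 spots was clustered, and the median difference of the spots around the outlying one was −0.03.

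Utp14a, a processome protein that activates the helicase Dhx37, went the other way. Its signals were 84.9 without BSP-II and 450 with it, and its levels −1.86 and 0.34. The difference of 2.20, or 4.6-fold, was the 5th highest of all 12862 measured genes. Its other probe gave 0.30, at signals of 108 and 153. Both spots were clustered. Around the outlying spot, 3 of 28 measured spots within 3 rows and columns were at least 2-fold higher and 0 were 2-fold lower. Around the other spot 2 of 12 were 2-fold lower, against the direction of Utp14a itself. The part of position in these values was not tested.

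The remaining 40S factors differed by less than the scanner error. Tsr1, a GTPase-like factor of late 40S maturation, was at levels of 3.64 and 3.45, a difference of −0.19, and its other probe gave the same −0.19. Rrp12 was at −0.17, at low signals of 79.0 and 81.1. Rcl1 was at −0.08 and at −0.03 by its other probe. Rrp9, a component of the U3 snoRNP and the brightest of the group, had signals of 13142 and 14397 and levels of 5.41 and 5.34, a difference of −0.07. Nop14 was at 0.03 and 0.05 by its 2 probes. Noc4l, its binding partner, was at 0.04. Heatr1, which also supports transcription by RNA polymerase I, was at 0.18 and at −0.10 by another probe. Another of its probes was not well above background on either array.

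Of the factors of 60S assembly, 10 of 11 lay below the median of all genes, beside 50% of all measured genes and 43.6% of the brighter genes. All 11 were within 1.2-fold and within the scanner's own error, and their median was −0.09. The count depended on the processing. Without background subtraction Rrp1b, Rrs1, Noc2l, Noc3l and Gnl3 lay above the median of all genes, in addition to Bop1. Nop2, a methyltransferase of the large ribosomal RNA, was the brightest, at signals of 36368 and 39592 and levels of 6.88 and 6.80, a difference of −0.08. Pes1, Bop1 and Wdr12 form the PeBoW complex. Pes1 was at −0.16, at a clustered spot, with −0.01 at its other probe, which was not clustered. Wdr12 was at −0.09, with −0.15 and −0.34 at its dimmer probes, whose signals were 1424 and 1480 and then 519 and 472. Bop1, at levels of 5.51 and 5.57, was at 0.06, above the median of all genes. Rrs1 was at −0.13, Nop16 at −0.13 by both probes, Ebna1bp2 at −0.12 and −0.07, and Rrp1b at −0.11 and 0.01. Gnl3, nucleostemin, was at −0.05. The pre-60S export factors Noc2l and Noc3l were at −0.05 and −0.03, and the other probe of Noc2l gave 0.01.

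The 4 nucleolar DEAD-box helicases, enzymes that remodel RNA structure, did not lean one way. Ddx10 was the highest of the brighter members. Its signals were 1331 and 1917 and its levels 2.11 and 2.43, a difference of 0.32, while its dim probe, at 153 and 181, gave 0.04. Ddx56 was at 0.07, at a clustered spot, and its dim probe, at signals of 31.1 and 73.3, gave 1.03. Ddx18 had signals of 13465 and 14826 and levels of 5.44 and 5.38, a difference of −0.07. Ddx21, which senses RNA polymerase I activity, was also at −0.07. Its dimmer probes gave −0.14, at signals of 1106 and 1161, and −0.36, at 90.6 and 81.5. Srm, spermidine synthase, a polyamine enzyme and known Myc target rather than an assembly factor, was among the lowest, at signals of 23576 and 23049 and levels of 6.25 and 6.02, a difference of −0.24 from 1 probe.

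Probes of the same gene were also set beside each other. Of the 19 members with more than 1 measured probe, 10 had all probes below 0, 4 all above 0 and 5 on both sides. The spread between probes of a gene had a median of 0.15 and ran from 0.00 in Tsr1 to 1.91 in Utp14a. In 5 genes, Bysl, Ddx56, Ncl, Nolc1 and Utp14a, it was 0.3 or more. The 24 probes that were not the brightest of their gene had a median of −0.10, and 15 of them lay below the median of all measured probes, −0.03. They are dimmer than the brightest by definition. All genes had medians of −0.24, −0.16 and −0.11 in the lowest bins of level, and the part of level in the probes' median was not tested. Counted singly, 6 of the 61 probes were at least 1.2-fold lower, beside 17.8% of all named measured probes, and 4 were at least 1.2-fold higher, beside 9.11%. Probes of a gene share its RNA and are not replicates of the treatment.

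The rest of the pathway was measured too. Of 113 other genes of ribosome production, 109 were measured on both arrays. Their median difference was −0.02, and 50 of them (45.9%) lay below the median of all genes. Among the brighter genes alone, 58 of 99 (58.6%) lay below the median of the brighter genes, as did 28 of the 35 brighter members, and under loess scaling 58 of 109 (53.2%) lay below the median of all genes. At least 1.2-fold lower were 5, beside the 18.1% of all measured genes and 5.99% of the brighter genes given above. At least 1.2-fold higher was 1, beside 8.66% and 4.76%. Their levels, with a median of 3.19 on the untreated array, were below those of the members. Whether the members and these genes differ was not tested, because genes are not replicates.

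The list of RNA polymerase I subunits and factors held 3 of the 5 lower genes, out of 18 measured. The share was 18.1% of all measured genes and 5.99% of the brighter genes, and the list's median level was 3.02 on the untreated array. Whether the list differs from either was not tested. Ttf1, which terminates its transcription, was at −0.75, at levels of 2.55 and 1.80, with −0.25 at its dim probe. Twistnb, now named Polr1f, was at −0.45 by its brighter probe and at 0.04 by its dimmer one. Cd3eap, now Polr1g, was at −0.36. Znrd1, now Polr1h, was the highest of this list at 0.17, followed by Polr2k, a subunit shared by the polymerases, at 0.08. The list's 18 genes had a median of −0.02, with 7 below the median of all genes. Cd3eap was named after its value was seen.

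Among 35 measured small subunit factors the median was −0.00 and 15 lay below the median of all genes. Rrp7a was the lowest at −0.62, but its other probe gave 0.10. Riok1, a kinase that releases factors from the pre-40S particle, was at −0.26, with −0.25 and −0.21 at its other probes, which makes it the lower gene with the closest agreement between probes in this list. Nop9 and Utp18 were the highest, at 0.25 and 0.23. The 38 measured 60S factors had a median of −0.05 with 20 below the median of all genes, and all lay within 1.2-fold, from Ddx51 at −0.19 and Wdr74 at −0.17 to Efl1 at 0.15 and Nop53 at 0.19. Exosome and RNase MRP genes, which trim and cut the precursor, had a median of −0.02 over 18 genes. They ran from Exosc2 at −0.23 and Exosc8 at −0.17 to Pop4 at 0.15 and Exosc9, at a clustered spot, at 0.32.

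**Figure D4:**
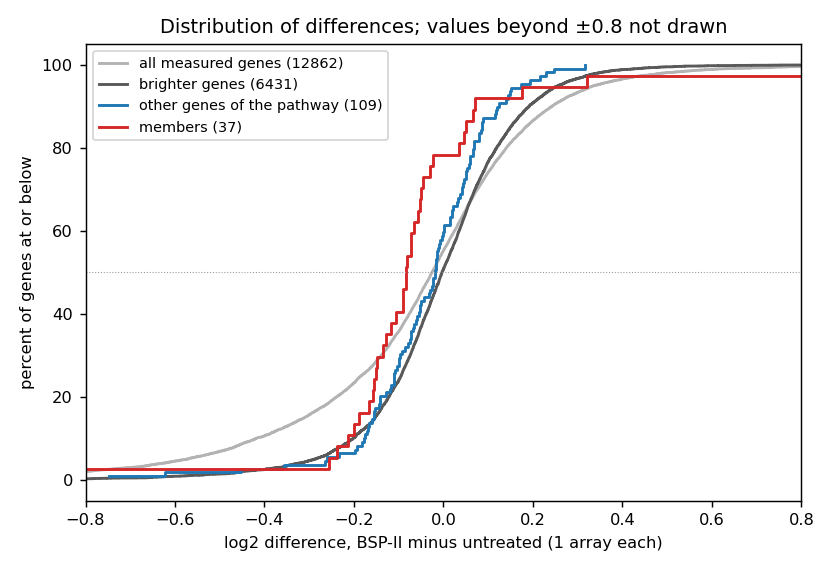
Cumulative distribution of the log2 difference, BSP-II minus untreated, for all 12862 measured genes, the 6431 brighter genes, 109 other genes of the pathway and the 37 members. The curve of the members crosses 50% at −0.08 and that of the other pathway genes at −0.02.

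Promoters were examined for the E-box CACGTG, the site that Myc with its partner Max is known to bind, which reads the same on both strands. RefSeq promoter sequences (build GRCm38.p6, 300 bases around the transcription start) were at hand for 34 of the 40 listed genes. The motif was found in 5 of these (14.7%), beside 8.09% of 27025 genes with a promoter sequence. They were Nop2, Pes1, Tsr1, Utp20 and Wdr43, of which the first 3 were measured. Their differences were −0.08, −0.16 and −0.19, all below the median of all genes, as were 20 of the 28 measured members without the motif, whose median was −0.07. The value of Pes1 came from a clustered spot, and its other probe, at −0.01, lay above the median of all genes. A match is a description of letters, not of binding, and 3 genes are too few for a comparison.

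The sequences below run from 120 bases before to 30 after the transcription start, with the E-box in capitals. The first 3 are the measured members that carry it, and Bysl and Utp14a are shown because they had the largest differences. In Nop2 (chr6:125131763-125131912, plus strand) the motif begins 60 bases before the start. In Pes1 (chr11:3963855-3964004, plus strand) and Tsr1 (chr11:74897960-74898109, plus strand) it begins at bases 3 and 25 of the transcript. Bysl lies at chr17:47611463-47611612, minus strand, and Utp14a at chrX:48256814-48256963, plus strand. In those the letters do not occur in the window of 300 bases.
Nop2: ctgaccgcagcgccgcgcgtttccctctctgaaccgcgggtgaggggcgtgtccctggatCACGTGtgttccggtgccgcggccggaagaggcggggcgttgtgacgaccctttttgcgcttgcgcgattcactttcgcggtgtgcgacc
Pes1: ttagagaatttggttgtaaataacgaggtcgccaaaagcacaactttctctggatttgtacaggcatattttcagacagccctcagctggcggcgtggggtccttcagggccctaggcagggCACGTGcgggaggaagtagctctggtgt
Tsr1: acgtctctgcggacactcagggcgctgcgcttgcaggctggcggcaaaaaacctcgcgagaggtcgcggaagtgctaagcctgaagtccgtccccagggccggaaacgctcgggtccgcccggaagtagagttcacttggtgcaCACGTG
Bysl: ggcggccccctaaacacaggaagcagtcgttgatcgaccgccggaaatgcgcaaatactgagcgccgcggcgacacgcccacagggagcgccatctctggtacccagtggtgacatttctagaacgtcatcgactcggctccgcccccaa
Utp14a: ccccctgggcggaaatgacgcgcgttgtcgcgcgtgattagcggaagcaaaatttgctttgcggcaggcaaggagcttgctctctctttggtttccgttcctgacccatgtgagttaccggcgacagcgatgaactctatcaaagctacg

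The lean of the members was not seen under every way of processing. Under other scalings the members' median stayed below that of all genes, by 0.06 in the authors' deposited value table and under loess scaling and by 0.03 after quantile scaling. The authors' table centres the arrays differently, so the median there was 0.04 for the members, 0.10 for the other pathway genes and 0.10 for all genes, and the sign against 0 flips. With the median spot brightness in place of the processed signal, which leaves out both background subtraction and detrending, 18 of the 37 members lay below the median of all genes, and both medians were −0.03. With normexp on that brightness and quantile scaling, 24 did. The call of Bysl as lower held with each scaling and not with its dimmest probe.

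**Figure D5:**
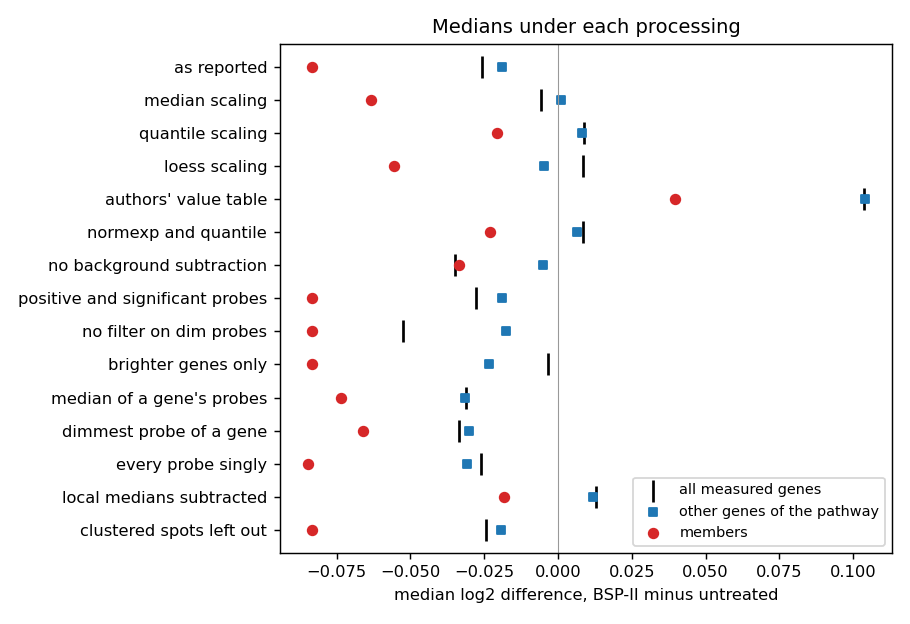
Median log2 difference, BSP-II minus untreated, of the members (red circles), the other pathway genes (blue squares) and all measured genes (black bars) under each way of processing. The members' median lies left of that of all genes in every row except the one without background subtraction, where the medians are both −0.03.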

How the data were processed

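RNA of 1 untreated and 1 BSP-II-treated hybridoma culture was measured on single-colour Agilent arrays. The submitters' processing notes name Agilent Feature Extraction 10.5.1.1 for the scanner files. The deposited intensity values, per the file headers, are a processed signal (background subtracted and detrended), its error, and median spot and background brightness. Deposited flags (unit other) mark spots well above background, positive and significant, saturated or outlying. The authors' deposited value table, on a log2 scale, holds 23296 probes. Set against the processed signal, 99.7% of its values equalled log2 of it plus 1 constant per array (−4.85 and −4.94) to within 0.001, and its column medians were 2.88 and 2.99. The reason for these constants is unknown here.

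Log2 processed signals were reduced by each array's 75th percentile, 309 and 356. Control spots and 189 outlier spots were left out, and spots of a probe were averaged. Probe accessions, versions removed, were looked up in RefSeq genes of GRCm38.p6, which named 25091 of 41163 probes (61.0%). The grid was built on mm9, so only promoter coordinates are given. A gene's value comes from its brightest probe among those well above background on both arrays. Signal over background limits dim probes: median local background was 46 and 37, while detected probes began at signals of 11.8 and 7.66. The number of arrays limits the precision. Fold sizes of 1.2, 1.5 and 2 are descriptions, not tests.

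All members were named. Full values were given for members 1.2-fold different by any measured probe, with probes 0.3 apart, or with the highest level of their role, and the 2 highest and 2 lowest genes of each other list and Myc were named. Members, lists and rules were chosen with earlier results of these data known. The counts and medians were tested on simulated gene differences with known folds, and the mark for clustered spots on made-up spots. Scaling, filters and the choice of probe were not tested on simulated data. Alternatives covered scaling, background correction, filters, the probe rule, position and fold size. Tools were R 4.3.3 with limma 3.58.1 (normexp, offset 50, on median signals, in place of mean signals) and Python 3.11.15 with pandas 2.3.3, numpy 2.4.6, statsmodels 0.14.6 and scipy 1.17.1.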

Additional observations from a re-analysis of the deposited data

How the results depend on the processing

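No paired analysis was possible because each group is 1 array. Of 477 member values recomputed under 13 alternatives, 463 moved by less than the scanner's own error, 13 moved by more, and Bysl, 1.2-fold lower as reported, turned its sign. Many of the 477 could not move by more. The other filters and the brighter genes alone keep each member's brightest probe and so repeat its value. Members with 1 measured probe keep theirs under the other probe rules. Median scaling and the authors' table shift all differences by 1 constant below that error. The 463 are therefore no measure of robustness. Counting members near 0 too, 49 of the 477 values had another sign than reported, 16 of them in the authors' value table, which adds to every difference, and 5 with the dimmest probe. By the dimmest probe of each gene Bysl was at 0.0571, and in the wider pathway Twistnb was at 0.0351 and Rrp7a at 0.10, all turned. In the authors' value table the median was 0.0397 for the members and 0.104 for the other pathway genes. Without background subtraction 18 of 37 members lay below the median of all genes, and the cause was not tested. Among the brighter genes alone, 1 member was at least 1.2-fold higher and 1 passed 1.5-fold, because Utp14a is not among them. With the median of a gene's probes 1 member passed 1.5-fold. With the dimmest probe 3 members were at least 1.2-fold lower and 1 passed 1.5-fold. With every probe counted singly, which raises the number counted, 43 of 61 member probes and 80 of 156 probes of the other pathway genes lay below the median, 6 were at least 1.2-fold lower and 4 higher. A size of 1.1-fold gave 11 lower members (29.7%, beside 30.3% of all genes) and 3 higher (8.11%, beside 20.4%), and 1.3-fold gave 1 higher member (2.70%, beside 3.92%). Other alternatives kept 22 to 29 members below the median of all genes. Dim probes limit Utp14a, whose difference was 1.58 after normexp and 1.65 without background subtraction. With clustered spots left out Utp14a had no probe and Ddx56 was at 1.03.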
